A study of Sparus aurata with 5 samples.

Results

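Expression of il10 and tlr9 was examined in the anterior intestine of gilthead seabream (Sparus aurata) juveniles by real-time qPCR. They are 2 of the 4 immune-related genes among the 14 target genes of the study. Both genes were taken by name and by no cutoff on their values, although earlier results of these data were known. The deposited block named trl9 was read as tlr9. The study asked whether microalgae-based functional ingredients in the feed alter intestinal function. There were 5 diets with 12 fish each. CT fish received the control diet. GB5 and GB10 fish received LB-GREENboost at 0.5% and 1% of the feed. GH5 and GH10 fish received LB-GUThealth at 0.5% and 1%. All fish were juveniles from the same commercial source. Fish were kept in replicate tanks. The paper states 4 fish per tank for its enzyme and electrophysiology samples but no number for the RNA samples. The tank of each fish is not given. Fish were therefore the replicates, and fish of 1 tank may resemble each other, in which case the p-values below are too small.

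The gene il10 encodes interleukin-10, a cytokine that dampens inflammatory responses and is secreted by regulatory T cells and macrophages in mammals. The gene tlr9 encodes Toll-like receptor 9, an endosomal receptor that recognises unmethylated CpG DNA of bacteria and viruses in mammals. In the gut of mammals, interleukin-10 holds back reactions to commensal bacteria, whereas TLR9 is one of the sensors by which such bacteria are detected. The other immune-related genes of the panel were igm, the heavy chain of immunoglobulin M, and cd4, the co-receptor of helper T cells, and the remaining 10 encode claudins and occludins of the tight junction. Each symbol had 1 match in the RefSeq gene table of the seabream assembly fSpaAur1.1. There il10 lies directly before mapkapk2a, which encodes a protein kinase, and dyrk3. The genes directly beside tlr9 carry no name, and the next ones out are wnt5a and capza1b.

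A quantification cycle is the point at which the fluorescence of the reaction crosses a threshold, so a higher cycle means less template, and 1 cycle stands for a factor of 2. Relative expression is a ratio, scaled to the reference gene eef1a in that fish and to the average of the CT fish with a deposited value. It is given for il10 in 57 fish. The other 3 fish (A7 and A10 of CT and A1 of GB5) had no il10 cycle. Whether il10 was too scarce to detect in them or was not measured is not known. The il10 ranges, means and folds below leave these fish out. For tlr9 all 60 fish had a cycle but 54 had a ratio. Because RNA came from whole tissue, fewer cells of a type and less RNA per cell cannot be told apart. No gene of the panel defines the anterior intestine, but cldn15, a claudin of the intestinal epithelium in mammals, was detected at a mean cycle of 24.3 ± 0.324 (SD, n = 59 fish).

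Both genes were among those read at the latest cycles of the panel. The mean tlr9 cycle was 31.5 ± 1.19 (SD, n = 60 fish), the second highest of the 14 genes after cldn4, and single fish ranged from 27.965 to 33.09. The mean il10 cycle was 29.7 ± 1.11 (SD, n = 57), the fifth highest, with single fish from 27.19 to 32.51. Both genes were read far later than eef1a, behind which tlr9 came by 12.8 ± 1.22 cycles and il10 by 10.9 ± 1.10 cycles (SD). The order within the fish was less clear for some neighbours than for others. The tlr9 cycle was above that of il10 in 55 of 57 fish, by 1.80 ± 1.08 cycles (SD). It was below that of cldn4 in 54 of 60 fish, by 1.03 ± 0.797 cycles. Against cldn3, the next gene down, it was higher in only 34 of 58 fish, and the mean gap of 0.296 cycles was smaller than its SD of 1.58. For il10 the gap was 0.543 ± 1.06 cycles to cldn24 (39 of 57 fish) and 0.823 ± 0.969 cycles to cd4 (48 of 57 fish), in both cases smaller than the SD. Each gene was read with its own primers, so a gap in cycles between genes is a description of the assays and not a ratio of transcripts.

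**Figure D1:**
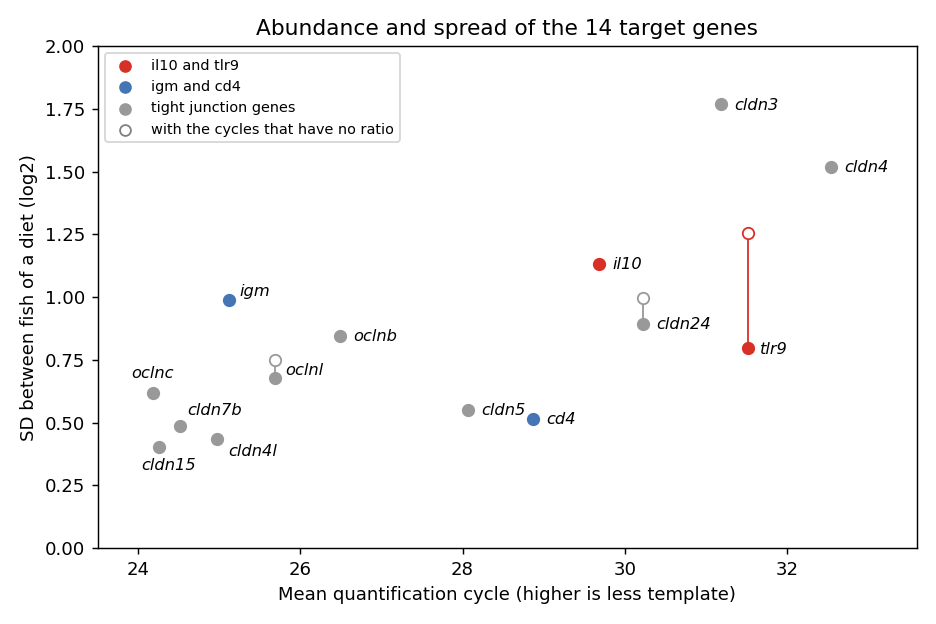
The mean quantification cycle of each of the 14 target genes (horizontal axis, higher is less template) is plotted against the SD between fish of the same diet on the log2 scale (vertical axis). The mean cycle of igm includes 20 cycles equal to those of cldn15. Filled points use the deposited ratios and open points also the cycles without a ratio, shown for tlr9, cldn24 and oclnl (that of cd4 lies on its filled point): il10 lies at 29.7 cycles and an SD of 1.13, and tlr9 at 31.5 cycles moves from an SD of 0.80 to 1.25.

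Fish of the same diet differed widely in il10. Its SD between fish of a diet was 1.13 on the log2 scale, rank 3 of the 14 genes after cldn3 and cldn4. For tlr9 it was 0.80 with the deposited ratios, rank 7, but 1.25 with all cycles, rank 3. The shape of the spread differed as well. The skewness of the deposited tlr9 ratio was 4.28, the highest of the panel, but with all cycles it was 3.16, rank 3 after cldn24 and cldn4. That of the il10 ratio was 2.17, rank 5 on both bases. On the log2 scale the skewness of il10 was small (0.03), but its quartiles did not lie evenly about the median. The median was -0.686, with a lower quartile of -1.02 and an upper quartile of 0.439. The lowest fish lay at -3.70 and the second lowest at -2.77. The skewness of tlr9 stayed high on that scale (1.42 with all cycles, the highest of the panel). Consequently a mean ratio over all fish did not describe the typical fish of either gene: 39 of 57 fish lay below the mean of il10, which was 1.60 times its median. For the deposited tlr9 ratios 39 of 54 fish lay below the mean, which was 1.36 times the median. Within GB5 and within GH10, however, 5 of 10 fish lay below the tlr9 mean of the diet.

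In the CT fish, relative expression of il10 ran from 0.0772 through a median of 0.620 to 3.20, with a mean of 1.00 ± 0.921 (SD, n = 10). In GB5 it ran from 0.147 through 0.622 to 4.58 (mean 1.19 ± 1.31, n = 11). In GB10 it ran from 0.385 through 0.614 to 2.07 (mean 0.873 ± 0.631, n = 12). The medians of these 3 diets were nearly equal, although their means were not. GH5 fish ran from 0.237 through 0.679 to 2.26 (mean 0.859 ± 0.563, n = 12). GH10 fish ran from 0.363 through 0.721 to 3.55 (mean 1.06 ± 0.899, n = 12). All 5 diets overlapped over most of their range. The 3 diets with the highest means (GB5, GH10 and CT) were those with the 3 highest single fish. The top fish of a diet alone held between 19.8% of the summed ratio in GB10 and 35.1% in GB5. Without that fish the means lay between 0.731 in GH5 and 0.846 in GB5. The 2 lowest values, 0.0772 in fish A1 of CT and 0.147 in fish A2 of GB5, had no counterpart in the other diets, where no fish lay below 0.237.

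The deposited tlr9 ratios were more compact in 4 diets and wide in the fifth. CT fish ran from 0.614 through a median of 0.859 to 1.62 (mean 1.00 ± 0.307, SD, n = 11). GB5 fish ran from 0.462 through 0.853 to 1.69 (mean 0.901 ± 0.380, n = 10). GH5 fish ran from 0.745 through 0.908 to 3.26 (mean 1.23 ± 0.728, n = 11). These 3 diets had medians below 1 and 1 fish above 2 among them. GH10 fish ran from 0.567 through 1.13 to 2.11 (mean 1.14 ± 0.434, n = 10). GB10 fish ran from 0.369 through 1.01 to 8.03 (mean 2.01 ± 2.18, n = 12). Both the lowest and the highest deposited value of tlr9 therefore came from GB10, and 5 of its 12 fish lay above 2 (2.15, 2.28, 2.55, 3.92 and 8.03).

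**Figure D2:**
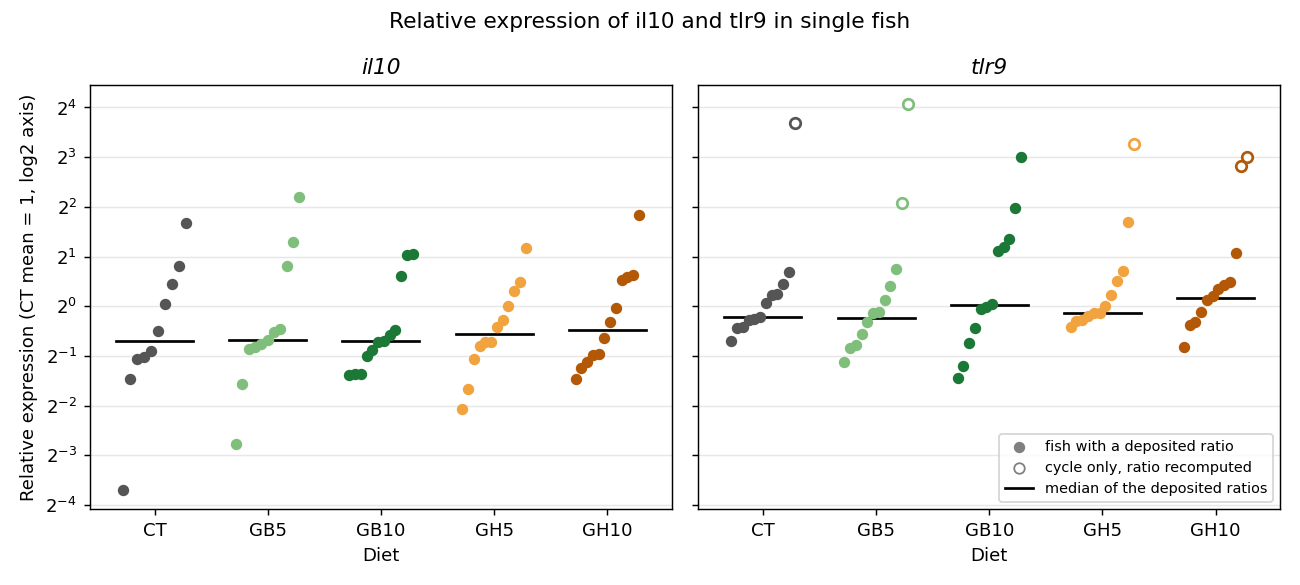
Relative expression of il10 (left) and tlr9 (right) in each fish, by diet, on a log2 axis with the CT mean of the deposited ratios at 1; filled points have a deposited ratio, open points a cycle only, and lines are medians of the deposited ratios. The il10 points of the 5 diets overlap, and the 6 open tlr9 points, from 4.22 to 16.7, lie above every filled point of their own diet.

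The 6 tlr9 cycles without a ratio were all from fish with much tlr9 template. The deposited ratios followed from the cycles to within 1% in all 54 fish, so the missing values could be recomputed on the same scale. Fish A6 of CT had a cycle of 28.025 and a recomputed ratio of 12.9. In GB5, fish A4 had a cycle of 27.965 and a ratio of 16.7, the highest of the 60 fish, and fish A8 a cycle of 29.495 and a ratio of 4.22. Fish A11 of GH5 had a cycle of 28.135 and a ratio of 9.65. In GH10, fish A2 had a cycle of 29.37 and a ratio of 7.04, and fish A12 a cycle of 29.43 and a ratio of 8.06. Each of these was above all deposited values of its own diet. However, 2 of the 6 were below the 8.03 of fish A6 of GB10, which had kept its ratio. GB10 was the only diet with a ratio for every tlr9 cycle, and no other target gene had more than 2 cycles without a ratio.

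With these cycles included, the mean tlr9 levels of the 5 diets came closer together. The mean rose to 1.99 ± 3.44 in CT (SD, n = 12), 2.50 ± 4.60 in GB5, 1.93 ± 2.53 in GH5 and 2.21 ± 2.53 in GH10, on the scale where the deposited CT mean is 1. That of GB10 stayed at 2.01 ± 2.18, so the diet with the highest deposited mean now stood at place 3 of the 5. Medians moved little, to 0.955 in CT, 0.913 in GB5, 0.954 in GH5 and 1.21 in GH10, beside 1.01 in GB10. A single fish then held between 30.4% of the summed ratio in GH10 and 55.9% in GB5, and 48 of 60 fish lay below the mean of all fish. Ratios above 2 were found in 5 GB10 fish, in 3 GH10 fish, in 2 fish each of GB5 and GH5, and in 1 CT fish.

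**Figure D3:**
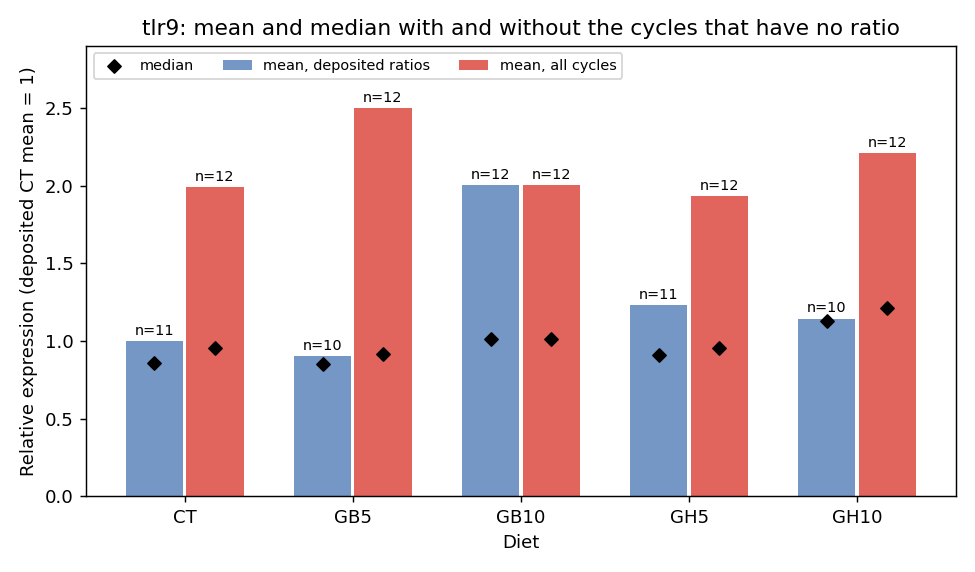
Mean (bars, from 0) and median (diamonds) of tlr9 relative expression by diet, from the deposited ratios (left bar of each pair) and from all cycles (right bar), with the number of fish; the SDs, which exceed most differences between bars, are given in the text. GB10 stands out at 2.01 among the deposited means, whereas the means of all cycles lie between 1.93 and 2.50 and the medians between 0.85 and 1.21 throughout.

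Fish with very high values were counted from all cycles, as those at least 2 cycles (4-fold) above the median of all fish. For il10 there were 3 of 57: 1 in CT, 1 in GB5 and 1 in GH10. For tlr9 there were 7 of 60: 2 each in GB5 and GH10, and 1 each in CT, GB10 and GH5. At this limit, though not at 3 cycles, every diet thus held at least 1 fish of very high tlr9, the control included. Among supplemented fish the share was 4.26% for il10 (2 of 47) and 12.5% for tlr9 (6 of 48), against 10% (1 of 10) and 8.33% (1 of 12) in CT. No difference was detected by a two-sided Fisher's exact test (p = 0.446 for il10 and p = 1 for tlr9), and with 10 or 12 CT fish only a large one could have been. Only 1 of the 7 fish of very high tlr9, A6 of GB10, had a deposited ratio, whereas all 3 of very high il10 had one. Both genes passed the limit in 2 fish, il10 alone in 1 and tlr9 alone in 5.

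The fish with a tlr9 cycle but no ratio were also rich in il10, which was described fish by fish and not tested, since they were singled out by their tlr9. Fish A6 of CT had an il10 ratio of 3.20, the highest of its diet. So had fish A4 of GB5 with 4.58 and fish A11 of GH5 with 2.26. Fish A8 of GB5 with 1.76 and A2 of GH10 with 1.49 took place 3 in their diets, and A12 of GH10 with 1.44 took place 4. All 6 lay above the il10 median of their diet. The same 6 fish were above the diet median in cldn4 (1.80 to 7.41) and cldn24 (1.56 to 10.3, the highest recomputed from its cycle), which encode claudins, and each of these genes was at its diet's highest value in 4 of them. The claudin genes cldn3 and cldn5 were above it in all 6 as well. The other immune genes were above the median in 5 of the 6 for igm (0.473 to 1.79) and in 4 for cd4 (0.590 to 1.48). The remaining tight junction genes ranged from 3 of the 6 (oclnb) to 5 (cldn15 and oclnc), so that igm and cd4 lay within the range of the panel. The part of other cell types in these values was not tested. Fish A6 of GB10, with the highest tlr9 ratio that was kept, had 1.52 for il10, the third of its diet, and 2.83 for cldn4, the highest. High il10 also occurred without high tlr9: fish A7 of GH10 had 3.55 for il10 and 1.28 for tlr9. This fish was also the highest of its diet in cldn4l (1.99) and cldn7b (1.78). With the mean of 5 other target genes as reference in place of eef1a, 0 of 12 GH10 fish passed the 4-fold limit for il10. The very high il10 of this fish thus depended on the reference. At the low end, fish A1 of CT was the lowest of its diet in both genes (0.0772 and 0.614), whereas fish A2 of GB5 had 0.147 for il10 and 1.32 for tlr9.

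The first comparison asked whether mean log2 expression differed among the 5 diets. No difference was detected for il10 (p = 0.975, permutation test of the one-way F statistic, 57 fish) or for tlr9 (p = 0.399, 54 fish). After Benjamini-Hochberg adjustment over the 14 genes, p was 0.997 for il10 and 0.718 for tlr9. Neither gene was thus among those called at p under 0.05, which were 7.14% of the panel (1 of 14), and no gene was called after adjustment. The moderated F test of limma called no gene either, with an adjusted p of 0.997 for il10 and 0.713 for tlr9. For the other immune genes the permutation test gave p = 0.384 for igm and p = 0.461 for cd4. With all cycles p was 0.977 for tlr9.

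The second comparison asked whether supplementation of either kind moved the genes from the control. At p under 0.05, 7.14% of the panel was called, and no gene was called after Benjamini-Hochberg adjustment. Each fold here is the difference of mean log2 expression turned back into a ratio, so it need not follow the mean ratios given above. For il10, the mean ratios of GB10 (0.873) and GH5 (0.859) lay below that of CT (1.00), although their folds were 1.06. In GB5 and GH10 both measures lay above CT. For tlr9 in GB10 the mean ratio was 2.01 and the fold 1.37. By mean log2, expression of il10 in supplemented fish was 1.12-fold that of CT fish, with a 95% interval from 0.651 to 1.91 (p = 0.664, two-sided permutation test). For single diets the fold over CT was 1.14 in GB5 (0.469 to 2.81), 1.06 in GB10 (0.517 to 2.21), 1.06 in GH5 (0.518 to 2.20) and 1.23 in GH10 (0.582 to 2.65). The interval of each diet held no change as well as a 2-fold rise. Expression of tlr9 was 1.13-fold (0.771 to 1.64, p = 0.53, permutation test). By diet it was 0.870 in GB5 (0.630 to 1.20), 1.37 in GB10 (0.755 to 2.51), 1.16 in GH5 (0.845 to 1.61) and 1.12 in GH10 (0.825 to 1.52). On the log scale these tlr9 intervals were narrower than those of il10 in every diet, but the ratios lack the highest tlr9 fish of every diet other than GB10. From all cycles they widened to 0.656 to 1.93 for all supplemented fish (1.12-fold) and to 0.534 to 2.26 for GB10 (1.11-fold).

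The ingredient, the dose and their interaction were compared within the 4 supplemented diets. At p under 0.05, 7.14%, 0% and 7.14% of the panel were called, and no gene was called after Benjamini-Hochberg adjustment. LB-GUThealth fish differed from LB-GREENboost fish by 0.05 ± 0.31 (SE, log2 scale) in il10 (p = 0.866, permutation test, 47 fish) and by 0.06 ± 0.26 in tlr9 (p = 0.829, 43 fish). Between 1% and 0.5% the difference was 0.06 ± 0.31 in il10 (p = 0.858) and 0.31 ± 0.26 in tlr9 (p = 0.258), by permutation tests. None of these was much larger than its SE. The interaction was 0.32 ± 0.61 in il10 (p = 0.609) and -0.71 ± 0.53 in tlr9 (p = 0.193), by permutation tests. For tlr9 the mean of log2 values was 0.66 higher at the high than at the low dose of LB-GREENboost and 0.05 lower with LB-GUThealth. With all cycles these changes became 0.10 and 0.16 higher, and the interaction 0.06 (p = 0.94, permutation test). Among the 10 pairs of diets, the lowest p adjusted over the pairs was 0.971 for il10 and 0.317 for tlr9, the latter between GB10 and GB5.

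Diets can differ in the spread between fish without differing in the mean. For il10 the SD on the log2 scale was 1.47 in CT and 1.36 in GB5, against 0.99 in GH10, 0.91 in GH5 and 0.89 in GB10, with no difference detected (p = 0.702, permutation test of absolute deviations from the diet median). For tlr9 it was 1.34 in GB10, against 0.43 in CT, 0.58 in GB5, 0.62 in GH5 and 0.54 in GH10. The same permutation test gave p = 0.0122, the smallest of the 14 genes, of which 14.3% were called (2 of 14), but 0.171 after Benjamini-Hochberg adjustment. Unequal spread of tlr9 was already known from earlier results of these data when this test was chosen, so its p is a description only. Without fish A6 of GB10 p was 0.0676. With all cycles the SD became 1.16 in CT, 1.46 in GB5, 1.08 in GH5 and 1.20 in GH10 beside 1.34 in GB10, and p was 0.847. By SD and by this test, the wider spread of GB10 was thus seen with the deposited ratios and not with all cycles. The quartiles of GB10 stayed the farthest apart with all cycles, at -0.515 and 1.23 on the log2 scale. Quartiles were -0.314 and 0.293 in CT, -0.615 and 0.490 in GB5, -0.222 and 0.555 in GH5, and -0.174 and 0.637 in GH10. The distance between quartiles was not tested.

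Finally the 2 genes were compared across fish, after the mean of each diet was subtracted from log2 expression. In the 51 fish with both ratios they rose together weakly (Pearson r = 0.30, p = 0.0243; Spearman rho = 0.36, p = 0.0117; fish permuted within diets). Of all 55 pairs among the 11 genes that share a list of eef1a cycles, 61.8% passed p under 0.05 by either measure and 54 had a positive rho, with a median of 0.33. The relation of il10 to tlr9 was thus close to the middle of the panel, at rank 31 by r and 23 by rho. Adjusted over the 55 pairs, p was 0.0425 for r and 0.0258 for rho. Without the 2 fish farthest from the il10 median (A1 of CT and A7 of GH10), r was 0.28 (permutation p = 0.0749) and rho 0.32 (permutation p = 0.0323). Without the 2 farthest from the tlr9 median (A6 and A4 of GB10), r was 0.18 (permutation p = 0.19), so the Pearson relation rests on such fish. Without the same 2 fish rho was 0.28 (permutation p = 0.0528). Left out alone, A4 of GB10 (p = 0.0575), A6 of GB10 (p = 0.0642) and A1 of CT (p = 0.0618) each ended the call of r by permutation, with r at 0.25 to 0.27. Both ratios share the eef1a cycle of the fish. Cycles taken without eef1a are not corrected for the amount of cDNA, which both genes share as well. From the cycles alone r was 0.25 (permutation p = 0.0809) and rho 0.32 (permutation p = 0.0345). With the mean of 5 other target genes as reference r was 0.16 (permutation p = 0.275) and rho 0.20 (permutation p = 0.178). These 5 include cd4 and cldn5, named below as most like il10, and cldn4l, named as among those most like tlr9. Subtracting genes that vary with both can itself lower r, so the drop does not show how far the relation rests on eef1a.

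With all cycles, which add the 6 fish of high tlr9, r and rho were higher. Over 57 fish r was 0.58 (p = 1e-05, the smallest that the permutations can give) and rho was 0.53 (p = 6e-05). Of the 55 pairs, 60.0% passed p under 0.05 by r and 58.2% by rho on this basis, with a median rho of 0.33, and il10 with tlr9 stood at rank 7 by r and 10 by rho. Several other pairs of tlr9 were higher too, and rho with cldn4 (0.65), cldn5 (0.58) and cldn24 (0.58) exceeded that with il10. The relation of il10 with tlr9 remained without eef1a, at r = 0.57 (p = 5e-05), and with the 5-gene reference, at r = 0.50 (p = 0.00029). Its rho was lower there, at 0.44 (permutation p = 0.00114) without eef1a and 0.37 (permutation p = 0.00614) with the 5-gene reference. Without the 2 fish farthest in il10 (A1 of CT and A4 of GB5) r was 0.50 (permutation p = 0.00015), and without the 2 farthest in tlr9 (A4 of GB5 and A6 of CT) it was 0.44 (p = 0.00049). Leaving out each fish in turn gave r between 0.51 and 0.63. Within diets r was 0.73 in CT (10 fish), 0.65 in GB5 (11 fish), 0.47 in GB10, 0.54 in GH5 and 0.46 in GH10 (12 fish each), positive in all 5. With the deposited ratios r was 0.80 in CT (9 fish), -0.09 in GB5 (9 fish), 0.47 in GB10 (12 fish), 0.13 in GH5 (11 fish) and 0.28 in GH10 (10 fish). After adjustment over the 5 diets, only CT passed with either set of values (p = 0.0425 with the ratios and p = 0.0053 with all cycles, permutation tests). Whether the relation differed between diets was not tested.

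**Figure D4:**
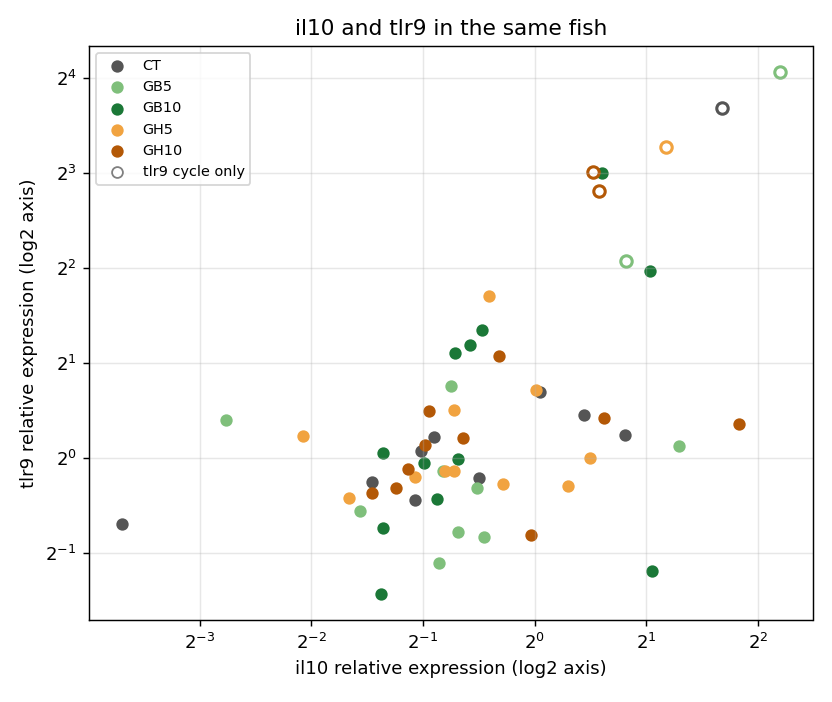
Relative expression of tlr9 (vertical) against il10 (horizontal) in the 57 fish with both cycles, both on log2 axes, coloured by diet; open points have a tlr9 cycle but no deposited ratio. The 51 filled points show a loose cloud (r = 0.30), and the 6 open points lie at its upper right (r = 0.58 over all 57 fish, each r with the diet means subtracted).

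The genes whose pattern across fish was most like il10 were cd4 (rho = 0.54, 56 fish), cldn5 (0.52, 57 fish) and cldn4 (0.49, 57 fish). These are values of log2 expression with diet means subtracted, given as a description. They changed little when the cycles were used without eef1a (0.52, 0.54 and 0.51). With all cycles tlr9 joined this group at 0.53, but it stood at 0.44 without eef1a. The genes most like tlr9 were cldn4 (rho = 0.52), cldn4l (0.50) and cldn24 (0.46), each over 54 fish, all claudins of the tight junction. Without eef1a and with all fish these became 0.67, 0.31 and 0.54, so that cldn4l fell back while cldn4 and cldn24 rose. The order of cd4 and cldn5 beside il10 thus depended on the reference, and by Pearson r of the ratios cldn4 (0.53) and cldn5 (0.51) came before cd4 (0.48). Beside tlr9, cldn4 came first on each of these bases, and rho of cd4 with tlr9 was 0.33.

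**Figure D5:**
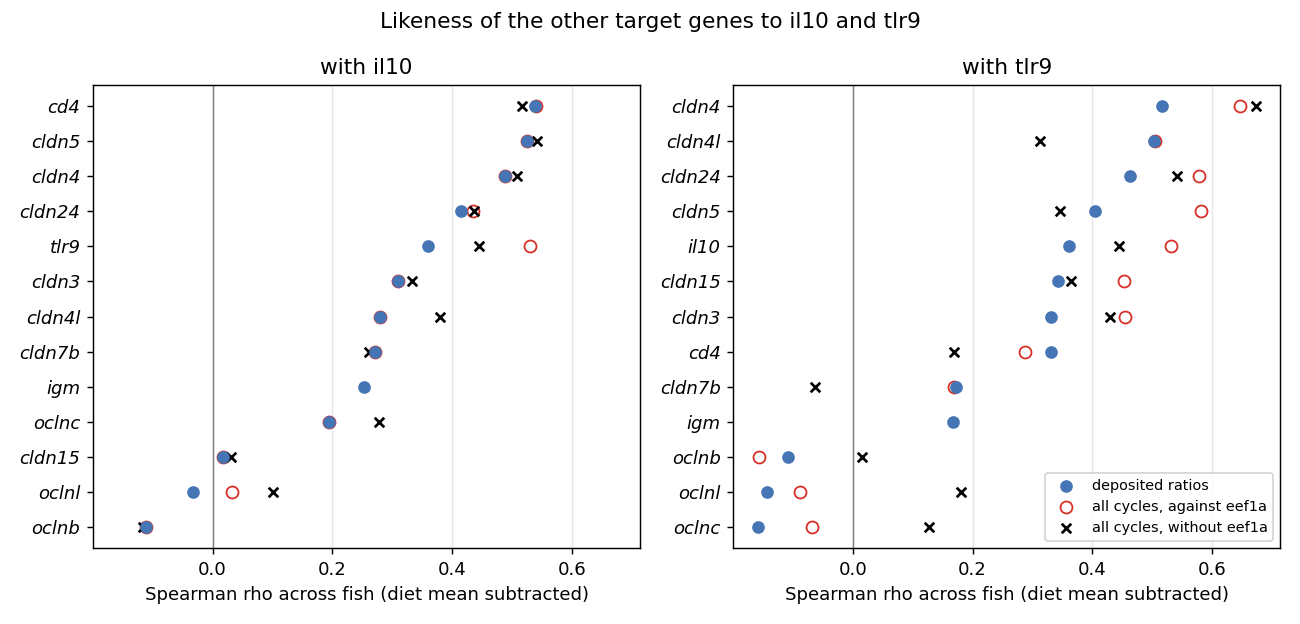
Spearman rho of each of the other 13 target genes with il10 (left) and tlr9 (right) across fish, with diet means subtracted; filled points use the deposited ratios, open points all cycles against eef1a, and crosses all cycles without eef1a (igm is shown from the deposited ratio only). The highest filled points are cd4 at 0.54 for il10 and cldn4 at 0.52 for tlr9.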

How the data were processed

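Anterior intestine RNA of 60 fish was measured by qPCR with EvaGreen in duplicate. The deposited cycles are log2-scale values that were not normalized, and relative expression was deposited as a ratio obtained by the authors through ΔΔCT against eef1a and the CT mean. The methods state that outliers found by ROUT (Q = 1%) were removed from analyses, but not which values these were, so why a cycle lacks a ratio is not known here. The authors' between-group fold table was not used. Instrument software and thresholds are not given in the sources used here. Depth does not apply, and the number of fish limits the precision.

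Samples were grouped by diet from the labels. Tests were run on log2 of that ratio. Permutation tests drew 100000 assignments of fish (20000 for leave-one-out values and 95% intervals, which invert the test), with Python 3.11.15, numpy 2.4.6 and scipy 1.17.1, and the moderated F test used limma 3.58.1. The tests were checked on simulated data, drawn as independent normal values. Their rate of false calls was checked with equal spread in all diets and without skew or tanks, unlike the tlr9 values. Benjamini-Hochberg adjustment ran over 14 genes. Alternatives were ranks, the linear ratio, all cycles, the mean cycle of cldn4l, cldn5, cldn7b, cldn15 and cd4 as reference, cycles under 35, and each fish left out. For igm only deposited ratios were used, since 20 of its cycles equal those of cldn15. Named were il10, tlr9, igm, cd4 and the 3 genes most like each of il10 and tlr9, and others where a result turned on them. The members, lists and tests were chosen with earlier results of these data known.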

Additional observations from a re-analysis of the deposited data

Results flagged for a closer look

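The tlr9 cycles without relative expression hold a signal outside the deposited ratios and above all of those of the CT fish, the highest of which was 1.62. On the deposited scale they came to 12.9 in fish A6 of CT, 16.7 in A4 and 4.22 in A8 of GB5, 9.65 in A11 of GH5, and 7.04 in A2 and 8.06 in A12 of GH10. Of these, 5 were from supplemented fish and 1 from a control fish, and 1 of the supplemented values exceeded that control fish. No fish stood apart in the 3 groups of il10 or tlr9 small enough for a test of single outliers (10 fish each). In 2 of these groups, GB5 and GH10 for tlr9, the highest fish have no ratio. The test did not include those fish, so it says nothing about high tlr9 fish there.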

How the results depend on the processing

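Of 129 values under other settings, 106 kept their direction and side of the threshold. Some of the 106 could not change, because their setting left the data as they were. No il10 or tlr9 cycle reached the limit of the cycle filter, so every value under that filter repeated the main one. All il10 cycles had a ratio, so the tests of il10 alone with all cycles also repeated the main values. The 15 values that changed sign were all differences that did not pass the test, and the cause was not tested. For il10 the linear ratio turned the differences of supplementation (-0.0100), ingredient (-0.0697) and dose (-0.0556), the 5-gene reference those of ingredient (-0.0445), dose (-0.0431) and interaction (-0.18), and ranks that of dose (-0.441 ranks). For tlr9 the ingredient difference turned with the linear ratio (-0.264) and the 5-gene reference (-0.13), and the interaction with all cycles (0.0571). Without eef1a, with the linear ratio and with the 5-gene reference, r of il10 with tlr9 was 0.25, 0.26 and 0.16 and no longer passed. By contrast, rho still passed without eef1a (0.32, permutation p = 0.0345) and with the linear ratio (0.36, permutation p = 0.00957). With the 5-gene reference rho was 0.20 and did not pass (permutation p = 0.178). The 5-gene reference holds genes named above as most like il10 and tlr9, which can itself lower r and rho. For the spread of tlr9, p rose to 0.32 with ranks and 0.847 with all cycles. At 3 cycles above the median, the share of high tlr9 fish, supplemented minus CT, was -4.17 percentage points, with 0 of 12 fish in GB10 and 0 of 12 in GH10. At 1 cycle the difference was 16.7 points (25% against 8.33%, p = 0.433, Fisher's exact test). For il10 with the 5-gene reference, CT, GB5 and GB10 held 1 very high fish each and GH10 held 0 of 12. With each fish left out in turn, differences ranged from -0.18 to 0.42 for supplementation, -0.0676 to 0.180 for ingredient and -0.0643 to 0.184 for dose in il10, and from -0.0248 to 0.177 for ingredient in tlr9. The lowest of these came without A1 of CT (supplementation), A2 of GB5 (il10 ingredient and dose) and A12 of GB10 (tlr9 ingredient). The p of the tlr9 spread ranged from 0.00205 to 0.0676, and r from 0.25 to 0.40. The relation over all cycles without eef1a, with the 5-gene reference or with fish left out, that without the 2 fish farthest in tlr9, and the 55 pairs over all cycles were added after seeing the data.

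No paired analysis was possible because each diet is 1 GEO sample, and the row numbers of the fish only name them. Relative expression rests on 1 reference gene and on duplicate reactions, whose single readings were not analysed here.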
